A study of Mus musculus with 12 samples.

Results

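The genes described are 10 feedback genes of the RAS-MAPK pathway: the phosphatases Dusp4, Dusp5 and Dusp6, the Sprouty genes Spry1, Spry2 and Spry4, the Spred genes Spred1 and Spred2, and the PEA3-type ETS factors Etv4 and Etv5. They were chosen by symbol, matched to the Ensembl identifiers of the count files, and are 10 of the 56748 identifiers counted in each library. RNA was sequenced from murine Lin-Sca+Kit+ (LSK) bone marrow (BM) cells, the immature fraction that lacks lineage markers and carries Sca-1 and KIT. All donors were CD45.2 SCLtTA/BCR-ABL double transgenic (DTG) mice, in which the tetracycline transactivator is driven by SCL regulatory elements and tetracycline (TET) keeps BCR::ABL1 off. The donor BM was a frozen pool from mice of both sexes, transplanted into B6.SJL CD45.1 recipients aged 8 to 12 weeks and irradiated with 2 doses of 4.25 Gy, so the libraries differ by recipient and not by donor. All recipients had TET for 2 weeks after transplantation. In the CML 2wk group (BCR::ABL1+, n = 6) TET was then withdrawn for 2 weeks before CD45.2+ LSK cells were sorted, and in the CTRL group (BCR::ABL1-, n = 6) TET was kept. The labels give male for all CTRL samples and female for all CML 2wk samples. Whether the recipient or the donor cells are meant is not stated. Labelled sex and BCR::ABL1 cannot be told apart.

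The RAS-MAPK pathway carries signals from activated tyrosine kinases through adaptors such as GRB2 to RAS, and from RAS through the RAF and MEK kinases to ERK. ERK activity raises transcription of genes whose products dampen the same pathway, so their RNA is often read as a record of ERK output. DUSP6 dephosphorylates ERK in the cytoplasm and DUSP4 and DUSP5 do so in the nucleus, while Sprouty and SPRED proteins act upstream, on the steps between receptor, RAS and RAF. ETV4 and ETV5 are transcription factors whose genes respond to the pathway, and the repressor CIC, which ERK signalling relieves, binds the control regions of several of these genes. BCR::ABL1, the fusion kinase of chronic myeloid leukaemia, binds GRB2 and activates RAS.

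Promoter windows from RefSeq (build GRCm38.p6, mouse) were matched to 7 of the 10 genes, and 3 are shown because they belong to the 3 genes that fell in BCR::ABL1+ cells. Capitals mark TGAATG on either strand, the core of the octamers TGAATGAA and TGAATGGA that CIC is known to bind. The search for this core was chosen after the sequences had been read. The windows end at the annotated transcription start and are written 5′ to 3′ on the strand of the gene. Dusp6 lies on the plus strand (chr10:99262981-99263230), Etv5 on the minus strand (chr16:22438369-22438618, 1 of its 2 windows), and for Spred2, on the plus strand, the bases before the first annotated exon are given (chr11:19924192-19924374).
Dusp6: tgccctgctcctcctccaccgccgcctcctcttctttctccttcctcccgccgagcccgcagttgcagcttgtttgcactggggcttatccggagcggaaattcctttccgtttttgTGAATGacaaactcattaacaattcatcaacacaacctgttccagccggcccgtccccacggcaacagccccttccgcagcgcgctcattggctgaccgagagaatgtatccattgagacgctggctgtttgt
Etv5: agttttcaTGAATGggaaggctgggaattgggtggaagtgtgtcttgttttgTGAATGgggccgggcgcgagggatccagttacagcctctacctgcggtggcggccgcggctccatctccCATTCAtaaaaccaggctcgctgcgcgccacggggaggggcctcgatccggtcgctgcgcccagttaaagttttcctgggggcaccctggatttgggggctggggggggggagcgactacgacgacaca
Spred2: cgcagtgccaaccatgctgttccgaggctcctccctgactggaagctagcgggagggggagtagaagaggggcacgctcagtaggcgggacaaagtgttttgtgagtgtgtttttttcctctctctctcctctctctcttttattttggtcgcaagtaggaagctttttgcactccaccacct
The Dusp6 window held 1 core and the Etv5 window shown held 3, with none in the other Etv5 window or in that of Spred2. A core was also found in the window of Dusp5, which did not pass the threshold with all libraries, and not in those of Spred1, Spry1 and Spry2. All 250 bases of the Dusp5 window overlapped annotated exon. Of 32536 promoter windows of the same length, 10.7% held at least 1 core and 0.132% held 3 or more. Neither full octamer (1.09% and 0.993% of windows), nor the ETS site CCGGAAGT (2.9%), the AP-1 site TGANTCA (6.73%) or the cyclic AMP element TGACGTCA (1.56%), was found on either strand in the windows of these 7 genes. The GC box GGGCGG, found in 33.0% of all windows, was present in windows of Dusp5, Etv5, Spred1, Spred2 and Spry1.

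Library totals ranged from 22804754 to 41832868 counts in CTRL and from 16150817 to 25070105 in CML 2wk. The share of mitochondrial counts was 0.816 to 1.29% in CTRL and 2.26 to 2.97% in CML 2wk. The spread between libraries also differed, with a biological coefficient of variation of 10.9% in CTRL and 32.6% in CML 2wk. One library, CML 2wk replicate 2, stood apart. Its 10 stromal markers, among them the collagen genes Col1a1 and Col3a1, summed to 801.4 CPM (counts scaled to a common library size), against 7.49 to 21.95 in CTRL, 291.4 in CML 2wk replicate 4 and at most 2.88 in the other 4 CML 2wk libraries. Of those 10 markers, 7 were highest in replicate 2 among all 12 libraries. Its 9 mast cell and basophil markers summed to 2459 CPM, against 294 to 397 in CTRL and 463 to 1075 in the other CML 2wk libraries. LSK and stem cell markers were present in every library, with sums of 2468 to 2847 CPM in CTRL and 1418 to 1846 in CML 2wk, and no marker on any of the 9 lists was at 0 throughout a group. Results are therefore given with all libraries and without CML 2wk replicate 2. In bulk RNA, a lower value cannot be divided between fewer cells of a type and less RNA in each cell.

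All 10 feedback genes passed the filter on low counts and were tested among 18438 genes with edgeR's quasi-likelihood test and Benjamini-Hochberg adjustment. In BCR::ABL1+ LSK cells, Etv4 rose and Dusp6, Spred2 and Etv5 fell, while Dusp4, Dusp5, Spry1, Spry2, Spry4 and Spred1 did not pass the threshold. The feedback genes thus gave 1 higher call in 10, where 30.6% of all tested genes were higher, and 3 lower calls in 10, where 29.0% of all were lower, a share close to the background. The median log2 fold change (CML 2wk minus CTRL) was -0.29 over the 10 genes and 0.07 over all genes. Without CML 2wk replicate 2, 6 of the 10 were lower (Dusp5, Dusp6, Spry1, Spred1, Spred2 and Etv5) and Etv4 remained higher, where 31.8% of 18680 tested genes were lower and 32.5% higher. The median over the 10 genes was then -0.44. Only Spred2 separated the groups, with all 6 CML 2wk libraries below all 6 CTRL libraries, which 20.6% of tested genes did. No feedback gene had all CML 2wk libraries above all CTRL libraries, which 17.0% of tested genes did. Without replicate 2, Dusp5, Dusp6 and Spred2 lay wholly below CTRL (24.3% of tested genes) and none lay wholly above (20.7%).

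**Figure D1:**
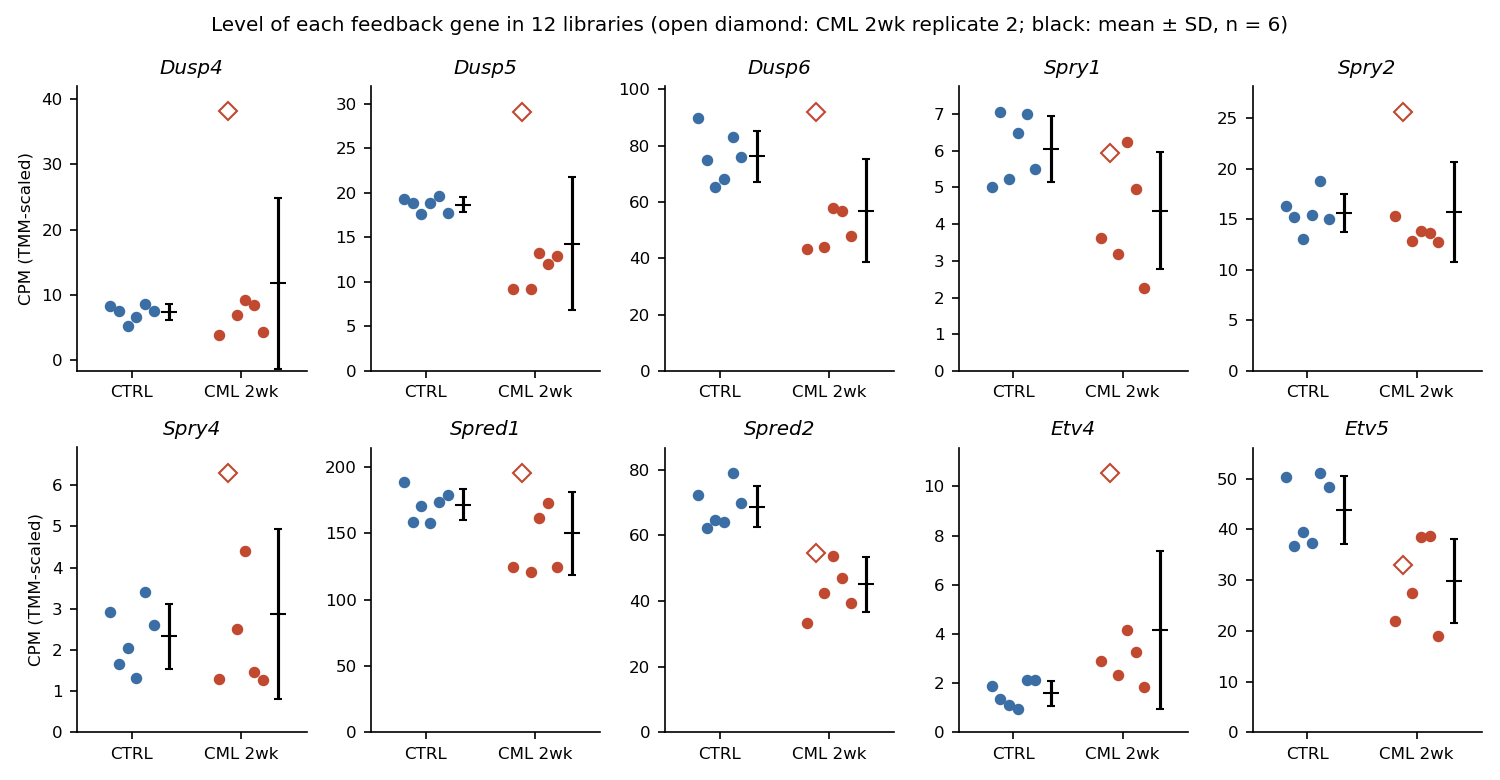
CPM of each of the 10 feedback genes in 6 CTRL (blue) and 6 CML 2wk (red) libraries, with the group mean ± SD in black and CML 2wk replicate 2 as an open diamond. Replicate 2 is the highest of all 12 libraries for 7 of the 10 genes, as it is for 2663 of all 18438 tested genes. Spred2 is the gene whose groups do not overlap.

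Among the phosphatases, Dusp6 (ENSMUSG00000019960) fell moderately. Its level was 65.4 to 89.9 CPM in CTRL (median 75.5) and 43.4 to 92.0 CPM in CML 2wk (median 52.4). The other 5 CML 2wk libraries lay at or under 57.7 CPM, all below the lowest CTRL library, and replicate 2 lay above the highest. The log2 fold change of Dusp6 was -0.42 (SE 0.16, adjusted p = 0.0352), and -0.62 without replicate 2 (SE 0.0994, adjusted p = 7.7e-05). The call was not firm with all libraries: with upper-quartile factors the adjusted p was 0.0624, and it rose above 0.05 when any 1 of 8 other libraries was left out, CTRL replicates 1, 5 or 6 or CML 2wk replicates 1, 3, 4, 5 or 6 (0.0511 to 0.0791).

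Dusp5 (ENSMUSG00000034765), which had a narrow CTRL range, ran from 17.6 to 19.7 CPM in CTRL (median 18.9) and from 9.19 to 29.1 CPM in CML 2wk (median 12.4). In CML 2wk, 5 libraries were at or under 13.3 CPM and replicate 2 was above every CTRL library. With all libraries the log2 difference was -0.38 (SE 0.231, adjusted p = 0.167), and without replicate 2 Dusp5 fell by 0.73 on the log2 scale (SE 0.108, adjusted p = 3.6e-05).

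Dusp4 (ENSMUSG00000031530) showed the widest range of the 3 phosphatases in CML 2wk. Its CTRL libraries ran from 5.27 to 8.63 CPM (median 7.58) and its CML 2wk libraries from 3.85 to 38.2 (median 7.74). The value of 38.2 CPM belonged to replicate 2 and was 4.14 times the next highest CML 2wk library, and the other 5 ran from 3.85 to 9.22, on both sides of the CTRL range. The log2 difference was 0.69 with all libraries (SE 0.461, adjusted p = 0.209) and -0.17 without replicate 2 (SE 0.217, adjusted p = 0.512), so its sign rested on that library.

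No Sprouty gene passed the test with all libraries. Spry1 (ENSMUSG00000037211) ran from 5.02 to 7.06 CPM in CTRL (median 5.99) and from 2.27 to 6.24 in CML 2wk (median 4.29). In CML 2wk, 4 of the 6 libraries were below the lowest CTRL library and the other 2, replicates 2 and 4, were within the CTRL range. The log2 difference of Spry1 was -0.46 (SE 0.225, adjusted p = 0.0884), and it fell by 0.58 without replicate 2 (SE 0.22, adjusted p = 0.0308) and by 0.59 without replicate 4 (adjusted p = 0.0361).

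Spry2 (ENSMUSG00000022114) was 13.1 to 18.8 CPM in CTRL (median 15.3) and 12.8 to 25.6 in CML 2wk (median 13.8), with replicate 2 alone above the CTRL range. The log2 difference was 0.01 (SE 0.163, adjusted p = 0.975), and -0.20 without replicate 2 (SE 0.0981, adjusted p = 0.0881). Its standard deviation of log2 CPM in CML 2wk dropped from 0.38 to 0.107 without that library. Spry4 (ENSMUSG00000024427) was among the lowest of the 10 genes, at 1.33 to 3.41 CPM in CTRL (median 2.33) and 1.28 to 6.29 in CML 2wk (median 1.99). Replicates 2 and 4 of CML 2wk were above all CTRL libraries and the others were within or below their range. The log2 difference of Spry4 was 0.31 (SE 0.398, adjusted p = 0.522) and -0.10 without replicate 2 (SE 0.337, adjusted p = 0.802), and at these SEs a difference of the size seen for Dusp6 could not have been told from none.

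Spred2 (ENSMUSG00000045671), whose product brings neurofibromin to RAS at the membrane, gave the lowest adjusted p of the 10 with all libraries. It ran from 62.2 to 78.9 CPM in CTRL (median 67.4) and from 33.3 to 54.6 in CML 2wk (median 44.7), with no overlap. Spred2 fell by 0.61 on the log2 scale (SE 0.11, adjusted p = 0.000258) and by 0.68 without replicate 2 (SE 0.103, adjusted p = 4.4e-05). Its paralog Spred1 (ENSMUSG00000027351) was 158 to 189 CPM in CTRL (median 172) and 121 to 195 in CML 2wk (median 143), and 3 of the 6 CML 2wk libraries were below the lowest CTRL library. The log2 difference of Spred1 was -0.19 (SE 0.114, adjusted p = 0.159), and it fell by 0.29 without replicate 2 (SE 0.0968, adjusted p = 0.0169).

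The ETS factors moved in opposite directions. Etv4 (ENSMUSG00000017724) was low throughout, at 0.967 to 2.13 CPM in CTRL (median 1.62) and 1.83 to 10.5 in CML 2wk (median 3.08), which rests on 30 or more counts in every library. In CML 2wk, 5 libraries were above the highest CTRL library and replicate 6 was within the CTRL range. Etv4 rose by 1.40 on the log2 scale (SE 0.391, adjusted p = 0.00666), a ratio of 2.63. The rise was 0.86 without replicate 2 (SE 0.26, adjusted p = 0.00958), a ratio of 1.82, and 0.70 without both libraries with high stromal sums, CML 2wk replicates 2 and 4 (adjusted p = 0.0297).

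Etv5 (ENSMUSG00000013089) was 36.8 to 51.0 CPM in CTRL (median 43.9) and 19.1 to 38.7 in CML 2wk (median 30.3). Of the CML 2wk libraries, 4 were below the lowest CTRL library and the other 2, replicates 4 and 5, were near the bottom of the CTRL range. Etv5 fell by 0.56 (SE 0.167, adjusted p = 0.0101), and by 0.60 without replicate 2 (SE 0.172, adjusted p = 0.0074). The direction of Etv4 and of Etv5, and their calls, held under all 25 alternative fits at the threshold of 0.05.

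**Figure D2:**
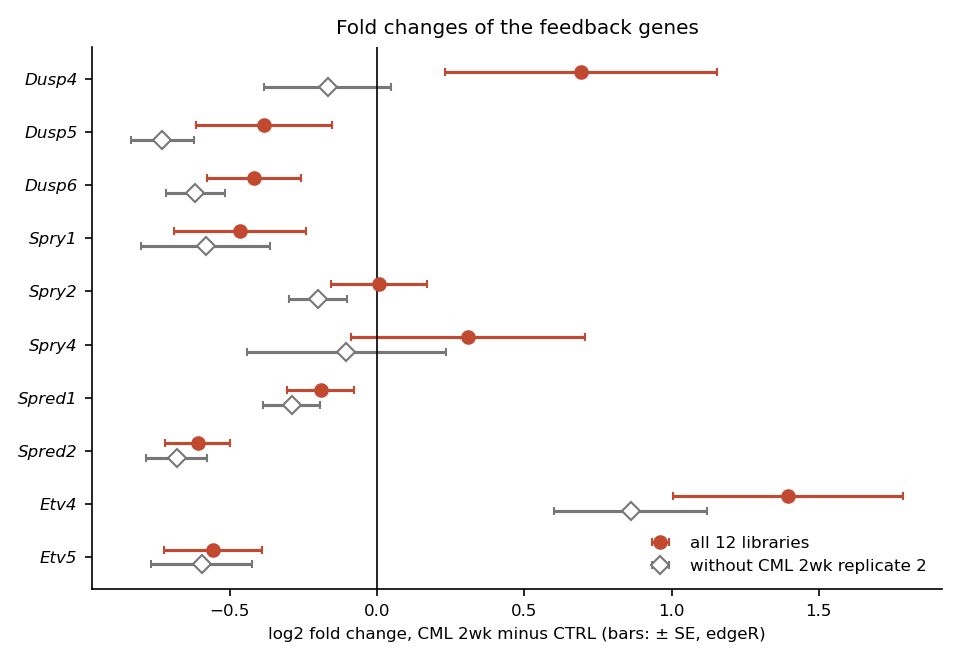
Log2 fold change (CML 2wk minus CTRL, edgeR, bars ± SE) of the 10 feedback genes with all 12 libraries (filled) and without CML 2wk replicate 2 (open). Leaving out replicate 2 moves every gene downward, most for Dusp4 (0.69 to -0.17), and Etv4 stays above 0.

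Compared per kilobase of annotated exon, so that genes of different length can be set side by side, Spred1 and Dusp6 had the highest levels in CTRL (medians of 25.4 and 24.1 CPM per kb). Spred2 (14.6) and Etv5 (10.7) followed, then Dusp5 (7.65) and Spry2 (7.34), Dusp4 (2.77) and Spry1 (2.06), and Etv4 (0.521) and Spry4 (0.49) were lowest. The CTRL ranges of Spred1 (23.3 to 27.8) and Dusp6 (20.9 to 28.7) overlapped, as did those of Dusp5 and Spry2, Dusp4 and Spry1, and Etv4 and Spry4, so these neighbours were not ordered beyond their spread. In CML 2wk the medians were 21.1 for Spred1, 16.7 for Dusp6, 9.69 for Spred2 and 7.39 for Etv5 on the same scale, and Etv4 (0.991) lay above Spry4 (0.418), with ranges that overlapped. The exon lengths are those of GENCODE on GRCm38, and the files were counted on another build.

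Variation between libraries was itself uneven over the 10 genes. In CTRL the standard deviation of log2 CPM ran from 0.065 for Dusp5, at percentile 11.8 of all tested genes, to 0.495 for Spry4, at percentile 94.4. In CML 2wk it ran from 0.275 for Spred2 to 1.18 for Dusp4, where the median over all tested genes was 0.302. Without replicate 2 it ran from 0.107 for Spry2 to 0.745 for Spry4, with 0.563 for Dusp4 and a median of 0.26 over all tested genes. CML 2wk replicate 2 was the highest CML 2wk library for 8 of the 10 genes, while 24.3% of all tested genes were highest there. Relative to the CTRL mean, the median difference of the 10 genes was 0.46 in replicate 2 on the log2 scale, -0.12 in replicate 4 and -0.23 in replicate 5, and it was -0.77, -0.58 and -0.70 in replicates 1, 3 and 6. The part of the stromal and mast cell sums of replicate 2 in these values was not tested. CML 2wk replicate 4, with the second highest stromal sum, had the second highest Etv4 and Spry4 values of all libraries, and its Dusp5 and Dusp6 values were below CTRL.

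**Figure D3:**
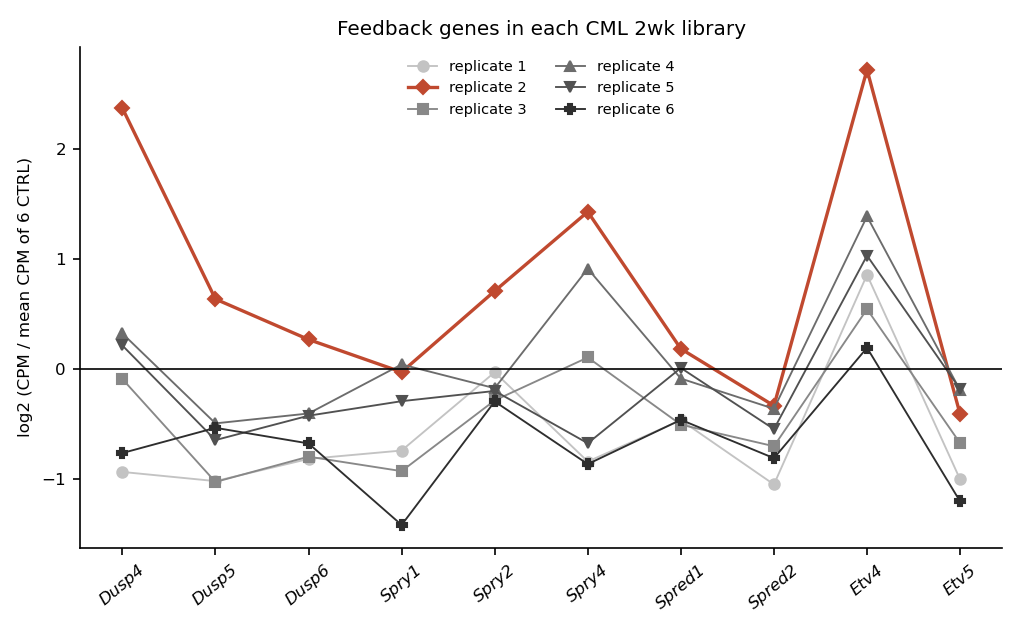
Log2 ratio of the CPM in each CML 2wk library to the mean CPM of the 6 CTRL libraries, for the 10 feedback genes. Replicate 2 (red) lies above 0 for 7 genes, while Spred2 and Etv5 lie below 0 and Etv4 above 0 in all 6 libraries.

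Ratios of raw counts within a library do not depend on scaling between libraries. The pairs were chosen after the values had been seen, so the ratios are a description. The ratio of Etv4 to Etv5 counts was 0.0259 to 0.0437 in CTRL and 0.0842 to 0.318 in CML 2wk, with no overlap, and its highest value without replicate 2 was 0.132. The ratio of Spred2 to Spred1 counts was 0.379 to 0.455 in CTRL and 0.267 to 0.350 in CML 2wk, again with no overlap, and replicate 2 (0.280) lay among the others. The ratio of Dusp4 to Dusp6 counts (0.0806 to 0.104 in CTRL, 0.0889 to 0.415 in CML 2wk) and that of Spry1 to Spry2 counts (0.307 to 0.465 and 0.178 to 0.449) overlapped between the groups.

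**Figure D4:**
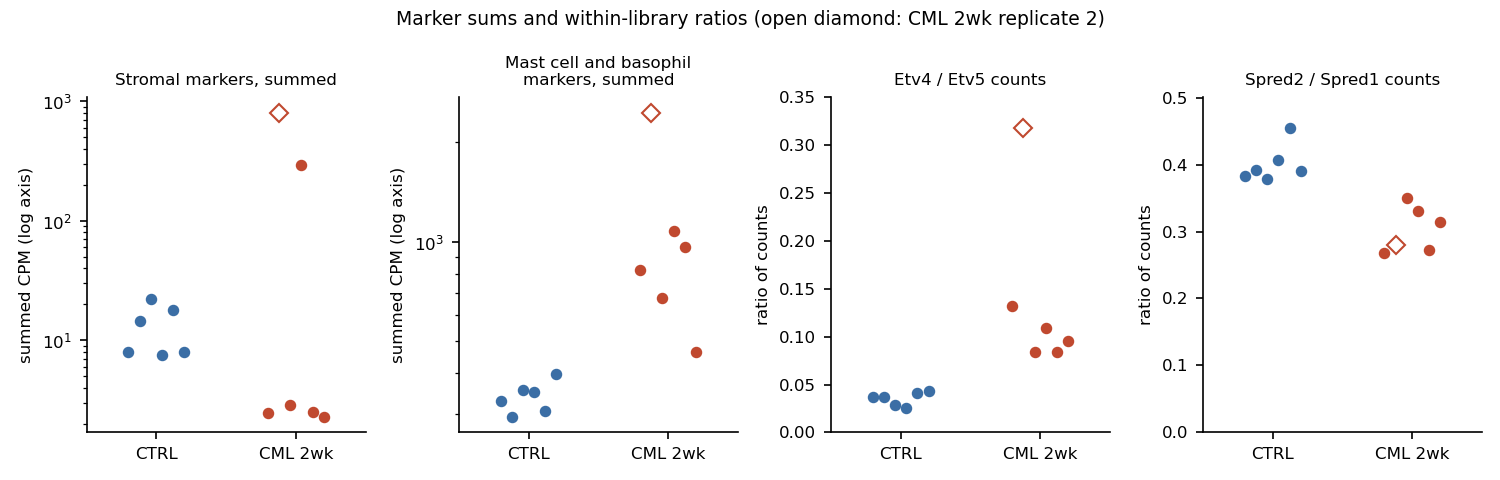
Summed CPM of 10 stromal and of 9 mast cell and basophil markers (log axes), and the ratios of Etv4 to Etv5 and of Spred2 to Spred1 counts, in each library (CTRL blue, CML 2wk red, replicate 2 as an open diamond). Stromal sums are high in CML 2wk replicates 2 and 4 (801.4 and 291.4 CPM), and both ratios separate the groups in all libraries.

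To set the feedback genes beside the rest of the pathway, 7 lists of other genes with 136 members in all were counted in the same fit. Of the 124 that were tested, 63 were lower (50.8%, against 29.0% of all tested genes), 17 higher (13.7%, against 30.6%) and 44 not past the threshold, with a median log2 fold change of -0.35. Without CML 2wk replicate 2, 79 were lower and 14 higher, where 31.8% and 32.5% of all tested genes were. The LSK marker list, which includes Kit (log2 fold change -0.86), was lower in 8 of 10 genes, and the part of a changed cell make-up in these counts was not tested.

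Among the other MAPK phosphatases, 5 of 13 tested genes fell (38.5%, against 29.0% of all genes) and 2 rose (15.4%, against 30.6%), with a median of -0.42. Dusp1, an immediate early phosphatase of p38, JNK and ERK, fell by 1.53 (SE 0.347, adjusted p = 0.00157), from 25.1 to 100.5 CPM in CTRL to 8.84 to 28.7 in CML 2wk, with ranges that overlapped. Dusp7, a cytoplasmic ERK phosphatase like DUSP6, fell by 0.81 and Dusp2, a nuclear one, by 0.67, both with no overlap between groups. Dusp9 rose by 0.76 (adjusted p = 0.0215), a call lost without CML 2wk replicate 2 (0.051) and without CTRL replicate 1 (0.0521) or 2 (0.0505). Ptprr, at a mean log2 CPM under 1, rose by 3.52 (adjusted p = 6.9e-05), and by 3.02 without CML 2wk replicate 2 (adjusted p = 4.8e-05). Its levels were low, at 0.0793 to 0.299 CPM in CTRL and 0.750 to 6.20 in CML 2wk, with no overlap. Dusp3 had a log2 difference of -0.31 (adjusted p = 0.157) and fell by 0.53 without CML 2wk replicate 2 (adjusted p = 0.00185).

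Other feedback regulators and family members fell in 13 of 22 tested genes (59.1%, against 29.0% of all) and rose in 4 (18.2%, against 30.6%), with a median of -0.42. Falls were led by GTPase-activating proteins, which switch RAS off: Rasa4 (-1.38), Rasal1 (-1.21) and Dab2ip (-1.13), each with no overlap between groups. Another of that class, Rasa2, rose by 0.69 (SE 0.0623, adjusted p = 4.6e-07), and Pebp1, which encodes a RAF inhibitor, rose by 0.60. Lrig1, which encodes a negative regulator of receptor kinases, rose by 1.75, or 0.85 without CML 2wk replicate 2, where it was at 16.5 CPM against a CML 2wk median of 2.98. Rasa1 had a log2 difference of -0.15 (adjusted p = 0.0598), which passed the threshold without CML 2wk replicate 2 (0.0191) or 5 (0.0387).

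Adaptors and exchange factors, which carry the signal from kinases to RAS, fell in 13 of 18 tested genes (72.2%, against 29.0% of all) and rose in none (30.6% of all), with a median of -0.69. Gab1, a docking protein, ran from 22.0 to 29.3 CPM in CTRL and 7.17 to 13.9 in CML 2wk and fell by 1.505 (SE 0.14, adjusted p = 5.5e-07). Rasgrp4, an exchange factor for RAS, fell by 1.55 and Gab3 by 1.34. Crk, an adaptor of ABL kinases, had a log2 difference of 0.10 (adjusted p = 0.189).

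In the RAS, RAF, MEK and ERK list itself, 8 of 20 tested genes fell (29.0% of all genes did), 4 rose (30.6% of all) and 8 did not pass the threshold, with a median of -0.16. Mapk3, which encodes ERK1, fell by 0.73 (SE 0.0986, adjusted p = 1.7e-05), from 58.6 to 69.5 CPM in CTRL to 28.7 to 48.7 in CML 2wk. The scaffold gene Ksr1 fell by 0.70 and Map2k2, which encodes MEK2, by 0.50. Hras (0.61) and the RAS-related Rap1a (0.67) and Rap1b (0.65) rose, and all 6 CML 2wk libraries lay above all CTRL libraries for each of them.

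The list of other ERK-responsive targets also held genes for kinases and transcription factors downstream of ERK (Rps6ka, Srf and Elk genes). It had 7 of 24 tested genes lower (29.2%, close to the 29.0% of all genes) and 5 higher (20.8%, against 30.6%), with a median of -0.12. The lower calls were Rps6ka1, Srf, Elk3 and Elk4 of that kind, and Fos, Ier2 and Mcl1. The higher calls were Rps6ka3 of that kind, and Lif, Phlda1, Egr2 and Plaur. Without CML 2wk replicate 2, 13 of 24 were lower, a larger share than the 31.8% of all tested genes. In that fit 5 were higher, where 32.5% of all were. Fos, an immediate early gene, ran from 12.1 to 127.7 CPM in CTRL and from 6.29 to 24.6 in CML 2wk, with the highest value in CTRL replicate 2. Fos fell by 1.54 (adjusted p = 0.0249), a call lost without CTRL replicate 2 (-0.87, adjusted p = 0.104) and without CML 2wk replicate 4 or 5 (0.0519 and 0.0531). Elk4 (-0.65) and Srf (-0.54), which encode partners at serum response elements, fell with no overlap between groups, and the kinase gene Rps6ka3 rose by 0.54. Plaur rose by 0.75 (adjusted p = 0.0242), or 0.38 without CML 2wk replicate 2, and lost its call without CTRL replicate 3 or 6 (0.0545 and 0.055). Myc, the highest of those not called, had a log2 difference of -0.09 (adjusted p = 0.36).

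The list of partners of the PEA3 factors and other ETS genes had 10 of 11 genes lower (90.9%, against 29.0% of all genes) and none higher (30.6% of all), with a median of -0.67. Cic, which encodes the repressor named above, ran from 240.5 to 259.8 CPM in CTRL and from 99.2 to 140.5 in CML 2wk. Cic fell by 1.08 (SE 0.0911, adjusted p = 2.5e-07). Among the feedback genes Etv4 rose, Dusp6, Spred2 and Etv5 fell, and the others did not pass the threshold. A link between Cic and these genes was not tested. Elf4 (-1.10) and Erg (-1.07), ETS factors of blood stem cells, also fell with no overlap. Spi1, which encodes the myeloid ETS factor PU.1, had a log2 difference of 0.06 (adjusted p = 0.526).

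Receptor genes upstream of the pathway, receptor tyrosine kinases and cytokine receptors together, fell in 7 of 16 tested genes (43.8%, against 29.0% of all) and rose in 2 (12.5%, against 30.6%), with a median of -0.35. Tek, an angiopoietin receptor gene, fell by 1.64 and Epor, the erythropoietin receptor gene, by 1.34, both with no overlap between groups. The rises were fragile: Fgfr1 rose by 0.97 (adjusted p = 0.0326), with 57.1 CPM in CML 2wk replicate 2 and a log2 difference of 0.34 without it (adjusted p = 0.071), and lost its call when any of CTRL replicates 1 to 5 was left out (0.0513 to 0.0642). Met rose by 0.30 (adjusted p = 0.0394) and lost its call when any of CTRL replicates 1, 2, 4, 5 or 6 or CML 2wk replicates 1, 4 or 6 was left out (0.0614 to 0.0936). Pdgfrb, a receptor of mesenchymal cells, had a log2 difference of 0.03 (adjusted p = 0.871).

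**Figure D5:**
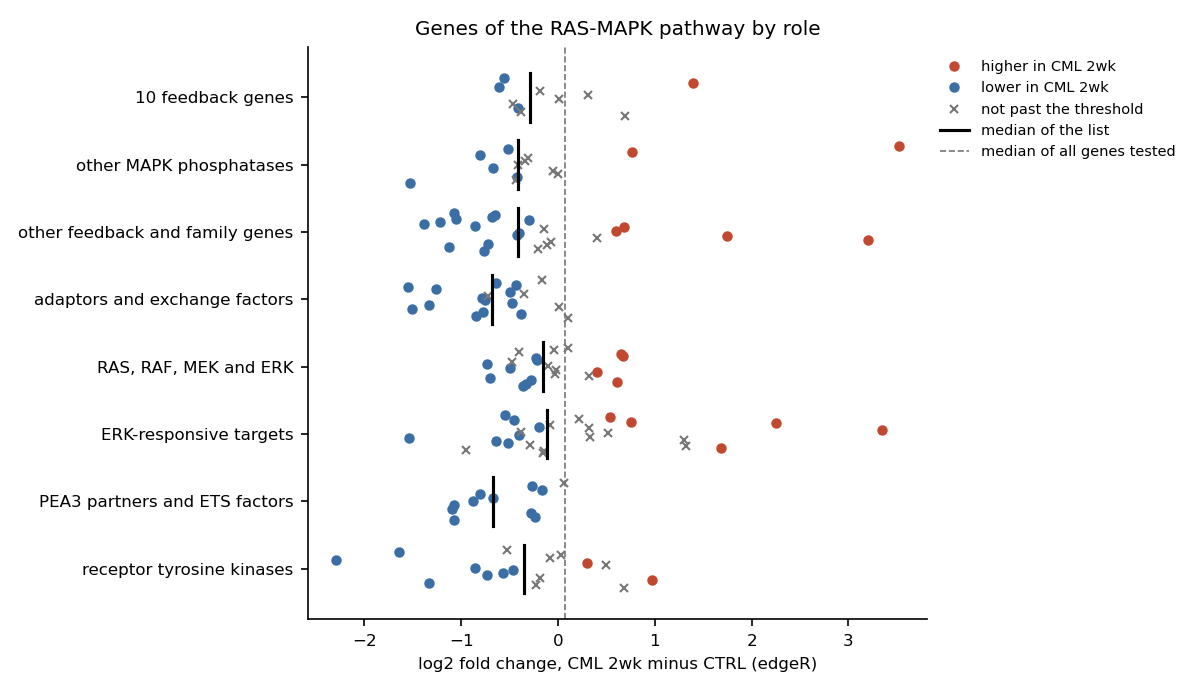
Log2 fold change (CML 2wk minus CTRL, edgeR) of each tested gene of the 10 feedback genes and of 7 other lists of the RAS-MAPK pathway, with higher calls in red, lower calls in blue and genes not past the threshold as grey crosses. List medians (black) lie below the median of all genes (dashed, 0.07) in every list, from -0.12 for ERK-responsive targets to -0.69 for adaptors and exchange factors.

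Over the 12 libraries, with log2 CPM centred on each group mean, the pattern of Exoc6b was the most like that of Dusp6 among 10158 genes compared (Pearson r = 0.953, Spearman rho = 0.895), and Hmga2 ranked 3 (0.943 and 0.853). Of the other feedback genes with a mean log2 CPM of at least 3, Dusp5 (r = 0.91, rank 32), Spred1 (0.882, rank 70) and Spry2 (0.841, rank 180) were nearest, followed by Spred2 (0.786) and Etv5 (0.591). The libraries differ in depth, and the high values of CML 2wk replicate 2 enter each of these r values. Without the 2 libraries farthest from the median, CML 2wk replicates 1 and 2, r was 0.897 for Exoc6b and 0.797 for Hmga2. Among the feedback genes it was then 0.787 for Spred1, 0.711 for Spry2, 0.699 for Spred2, 0.672 for Etv5 and 0.641 for Dusp5, so the order given above rested on those libraries. Within CML 2wk without replicate 2, r was -0.09 for Spry2, and it was 0.954 for Spred1, 0.861 for Spred2, 0.801 for Etv5 and 0.799 for Dusp5.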

How the data were processed

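RNA of 12 sorted samples (6 CTRL, 6 CML 2wk, grouped by their titles) was sequenced in pairs of reads. The authors deposited raw, whole-number counts per gene, 1 file per sample. The submitters' processing notes name FastQC 0.11.9, fastp 0.23.2, STAR 2.7.10a, featureCounts 2.0.1, DESeq2 1.36.0 and the mouse build mm39 (GRCm39), while the study's methods name other trimming and alignment tools and a human build. The identifiers are murine, so the notes were followed. Whether counting used strand is not given in the sources used here. Of 56748 identifiers, 52073 had a symbol, and no entry named anything but a gene. Libraries were compared in pairs, and none agreed within sampling noise (lowest chi-square per degree of freedom 4.07). The study's methods give 2 cohorts of 6 recipients, which share pooled donor marrow, so p-values measure the spread between recipients and not between donors.

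Counts were filtered with filterByExpr (18438 genes kept), scaled by TMM and fitted with edgeR 4.0.16 (R 4.3.3) by group, with Benjamini-Hochberg adjustment over all genes and a threshold of 0.05. CPM values are TMM-scaled, and log2 CPM uses a prior count of 2. A total of 3 counts, the floor for a gene listed at 0, equals 0.0717 to 0.186 CPM over the libraries, for counting error only. The fit was first tested on simulated data, with the same spread in both groups and few changed genes. That simulation did not cover the unequal spread or the many changed genes seen here. Alternatives were DESeq2 1.42.0, limma 3.58.1 (voom), other scaling and filters, a threshold of 0.01, thinning, removal of mitochondrial genes, the replicate number as a block, and libraries left out. The members, gene lists and tests were chosen with earlier results of these data known. From each pathway list, up to 3 higher and 3 lower genes with the largest change (mean log2 CPM of at least 1) and the most abundant gene not called were named. Some genes that meet this rule are not reported here. The human BCR::ABL1 transgene was not analysed here. Promoter windows came from RefSeq, and Spry4, Dusp4 and Etv4 had none that was used.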

Additional observations from a re-analysis of the deposited data

Results flagged for a closer look

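The values below stood apart from the remaining libraries of the same condition by a gap test, which chance alone passes in about 1 in 20 groups. Of 38 groups examined, 8 held such a library, and 7 of the 8 were CML 2wk replicate 2. The groups are genes and marker sums of the same libraries and so are not independent. The 1.9 that chance alone would give on average therefore cannot be used to judge the 8. Among the feedback genes this library held Dusp4 at 38.16 CPM (next highest CML 2wk library 9.22), Dusp5 at 29.09 CPM (13.3), Dusp6 at 92.03 CPM (57.7), Spry2 at 25.63 CPM (15.4) and Etv4 at 10.52 CPM (4.18). Its stromal markers summed to 801.4 CPM (next 291.4) and its mast cell and basophil markers to 2459 CPM (next 1075). The remaining value was in CTRL replicate 4, whose 8 neutrophil markers summed to 4245 CPM (next 2530). What set these libraries apart was not tested.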

How the results depend on the processing

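Etv4 was the feedback gene called higher in all 26 alternatives, and Spred2 and Etv5 kept their direction and call in 25 of 25 fits at the 0.05 threshold (adjusted p 6.3e-07 to 0.00172 and 0.00211 to 0.0356). The count of feedback genes called lower was 3 with all libraries, where 5339 of 18438 tested genes were lower. At a threshold of 0.01 it was 1 (4385 of 18438 genes), and without CML 2wk replicates 2 and 4 it was 6 (6061 of 18946). When 1 library was left out it was 2 to 6, where 5013 to 5937 of all genes were lower. With a replicate block it was 5 (5189 of 18438 genes). It was 6 (5340 of 18404) with a replicate block without replicate 2 of both groups, a setting chosen after seeing the data. The replicate block gave 4786 higher and 5189 lower calls over all genes, against 5637 and 5339 without it. The samples share only a number: same-numbered deviations correlated at -0.125 to 0.0679, and 1 of 12 libraries correlated best with its own number. Feedback genes with all CML 2wk libraries below CTRL numbered 1 to 3 with 1 library left out and 4 without CML 2wk replicates 2 and 4. Those wholly above numbered 0 to 1, and 1 without replicate 6 of both groups. A lack of overlap is easier to reach with fewer libraries. Over all tested genes the shares below and above were 20.6% and 17.0% with all libraries, and 24.3% and 20.7% without CML 2wk replicate 2. The shares for the other settings are not given, so those counts cannot be set against them.

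Some log2 differences, none past the threshold, changed sign. Dusp4 was -0.17 to 0.87 with 1 library left out, -0.32 without CML 2wk replicates 2 and 4 and -0.19 with the block without replicate 2. Spry4 was -0.10 to 0.45, -0.52 and -0.26 in the same order. Spry2 was -0.20 to 0.0597, -0.21 and -0.17, and also -0.0695 with no filter, -0.0168 with limma-voom and -0.0345 with the replicate block. Pdgfrb was -0.10 to 0.0921 with 1 library left out, -0.0808, -0.14 and -0.0447 with no filter, and Spi1 was -0.0114 with no filter. Of 39 named pathway genes, 28 kept direction and call in all 25 fits. Of 364 list counts under alternatives, 331 stayed within 1.5 times. The cause of these shifts was not tested. Depth limits Etv4 and Spry4 most, with as few as 30 and 23 counts in a library.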
